A study of Mus musculus with 55 samples.

Results

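Ionotropic glutamate receptor subunits are the proteins that build the fast excitatory ion channels of the brain. The genes Gria1, Gria2, Gria3, Gria4, Grin1, Grin2a, Grin2b, Grin2c, Grin2d and Grik2 were taken by name, and all 10 were measured among the 799 genes of an nCounter panel, an assay that counts fluorescent barcodes bound to each RNA. RNA came from cortex of 55 adult male C57BL/6 mice bought at an age of 8 to 10 weeks. The study followed a time course after diffuse traumatic brain injury (TBI) with and without PLX5622, an inhibitor of the receptor CSF1R that removes most microglia, the resident macrophages of the brain.

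The 4 groups on PLX5622 chow (1200 mg/kg in AIN-76A diet) were naive mice (n = 6) and mice killed 1 day (n = 8), 7 days (n = 9) and 30 days (n = 7) after TBI. The 4 groups on the vehicle diet, plain AIN-76A chow, were naive mice (n = 7) and mice killed 1 day (n = 6), 7 days (n = 7) and 30 days (n = 5) after TBI. Injured mice ate their diet for 14 days before TBI and until death, so time on the diet rises with day after injury. Comparisons between days therefore differ in time on the diet too. How long naive mice ate it is not stated by the labels. Tissue was microdissected from regions that neighbouring sections stained for CD11b had shown to hold altered microglia, and its RNA was pre-amplified. One vehicle naive mouse, 695, has a title that also carries a 7-day mark and was kept with the naive mice by its injury label.

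The AMPA receptor subunits GluA1 to GluA4, encoded by Gria1 to Gria4, carry most of the fast excitatory current at cortical synapses, and GluA2 makes the channel nearly impermeable to calcium. NMDA receptors combine the obligatory subunit GluN1, encoded by Grin1, with GluN2 subunits encoded by Grin2a to Grin2d, and they admit calcium when glutamate arrives at a depolarised cell. Grin2b dominates before birth and Grin2a rises with maturation, whereas Grin2c is best known from cerebellar granule cells and, in the forebrain, from astrocytes and some interneurons. Grik2 encodes GluK2, a kainate receptor subunit.

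In GRCm38.p6 the Grin2c gene (gene ID 14813) spans chr11:115249169-115267297. Gria1 is on chromosome 11 too, and Gria2, Gria3, Gria4, Grin1, Grin2a, Grin2b, Grin2d and Grik2 are on chromosomes 3, X, 9, 2, 16, 6, 7 and 10. Grin2c was the only member called by the test over all groups given below, so the sequence upstream of it is shown. With it are those of Grin1 and Gria4, the other members whose window from 55 to 250 bases before the listed start lay outside their own annotated gene span. Among the 10 members, 6 had an entry in the RefSeq promoter table (GRCm38.p6), and these 3 had such a window of 196 bases. All 3 windows are on the minus strand, at chr11:115267298-115267493 for Grin2c, chr2:25319242-25319437 for Grin1 and chr9:4796289-4796484 for Gria4. They are written 5′ to 3′, with each CG dinucleotide in capitals.
Grin2c: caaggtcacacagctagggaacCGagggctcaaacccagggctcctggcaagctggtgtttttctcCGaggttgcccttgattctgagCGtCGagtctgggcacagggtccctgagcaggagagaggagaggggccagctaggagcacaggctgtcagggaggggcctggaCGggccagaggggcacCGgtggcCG
Grin1: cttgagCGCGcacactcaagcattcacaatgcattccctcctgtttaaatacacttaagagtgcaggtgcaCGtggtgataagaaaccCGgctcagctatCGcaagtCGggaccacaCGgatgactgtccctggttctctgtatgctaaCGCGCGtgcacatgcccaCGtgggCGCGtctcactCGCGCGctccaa
Gria4: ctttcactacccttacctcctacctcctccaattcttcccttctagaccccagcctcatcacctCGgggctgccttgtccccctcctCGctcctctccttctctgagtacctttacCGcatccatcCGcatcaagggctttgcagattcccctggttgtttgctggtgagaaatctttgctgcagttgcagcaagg

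The Grin2c window was 64.8% G and C and held 7 CG dinucleotides, more than 62.5% of the 32851 windows in the table. The Grin1 window held 16, more than 84.8% of all windows, and the Gria4 window held 4, more than 46.6% of them. Searches of both strands found no match in the 3 windows to any of 5 motifs. The windows end 55 bases before the listed start, so they leave out the stretch nearer to it where a TATA box usually lies. For Grin2c the listed start lies inside the annotated gene span. Its window runs up to the edge of that span and so takes in the stretch just upstream of that edge. The GC box, GGGCGG, occurred in 23.9% of all windows of that length and the CRE, TGACGTCA, in 0.782%. The TATA box, spelled TATAAA, was present in 9.0% of them. The STAT site, TTCNNNGAA, was present in 5.66%. The NF1 half-site, with the letters TTGGCA, was present in 10.0%.

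Each value is a barcode count divided by one size factor per mouse, so values compare mice for one gene and not genes with each other. Total counts per mouse ranged between 176038 and 1208609, with a median of 519047. The lowest counts of a member were 22 for Grin2d, 23 for Gria4 and 31 for Grin2c, where counting error alone is 21.3%, 20.9% and 18.0% of the value, and every other member had at least 108 counts in every mouse. All tests of differences are limma's moderated test on log2(value + 1) over all 55 mice, with cartridge (the nCounter cassette, 5 in all) as a covariate and Benjamini-Hochberg adjustment over 799 genes. The threshold for a call was an adjusted p of 0.05, two-sided. Fold changes are on that scale. In bulk tissue, fewer cells of a type and less RNA per cell cannot be told apart. The summed level of the 16 microglial marker genes measured had a median of 253 in PLX5622 naive mice, against 2588 in vehicle naive mice. Such a sum weighs each gene by its signal and is a description only. Single genes of the list differed by unlike amounts between these groups, for example -5.59 ± 0.56 for C1qb and -1.11 ± 0.33 for Irf8 (log2, SE).

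One member, Grin2c, differed among the 8 groups. The moderated F test over all group means called Grin2c (F = 5.40, adjusted p = 0.00174) and none of the other 9 members, whose adjusted p ran between 0.36 for Gria2 and 0.854 for Grin2d. The same test called 102 of the 799 genes, which is 12.8% of the panel. A single call among the 10 members is near that share and says nothing particular about the receptors as a set. Highest and lowest group means of Grin2c differed 1.60-fold, against 1.14-fold for Gria3 and 1.35-fold for Gria1, the smallest and the largest such ratios among the other 9. The plot of all members by group shows this spread.

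**Figure D1:**
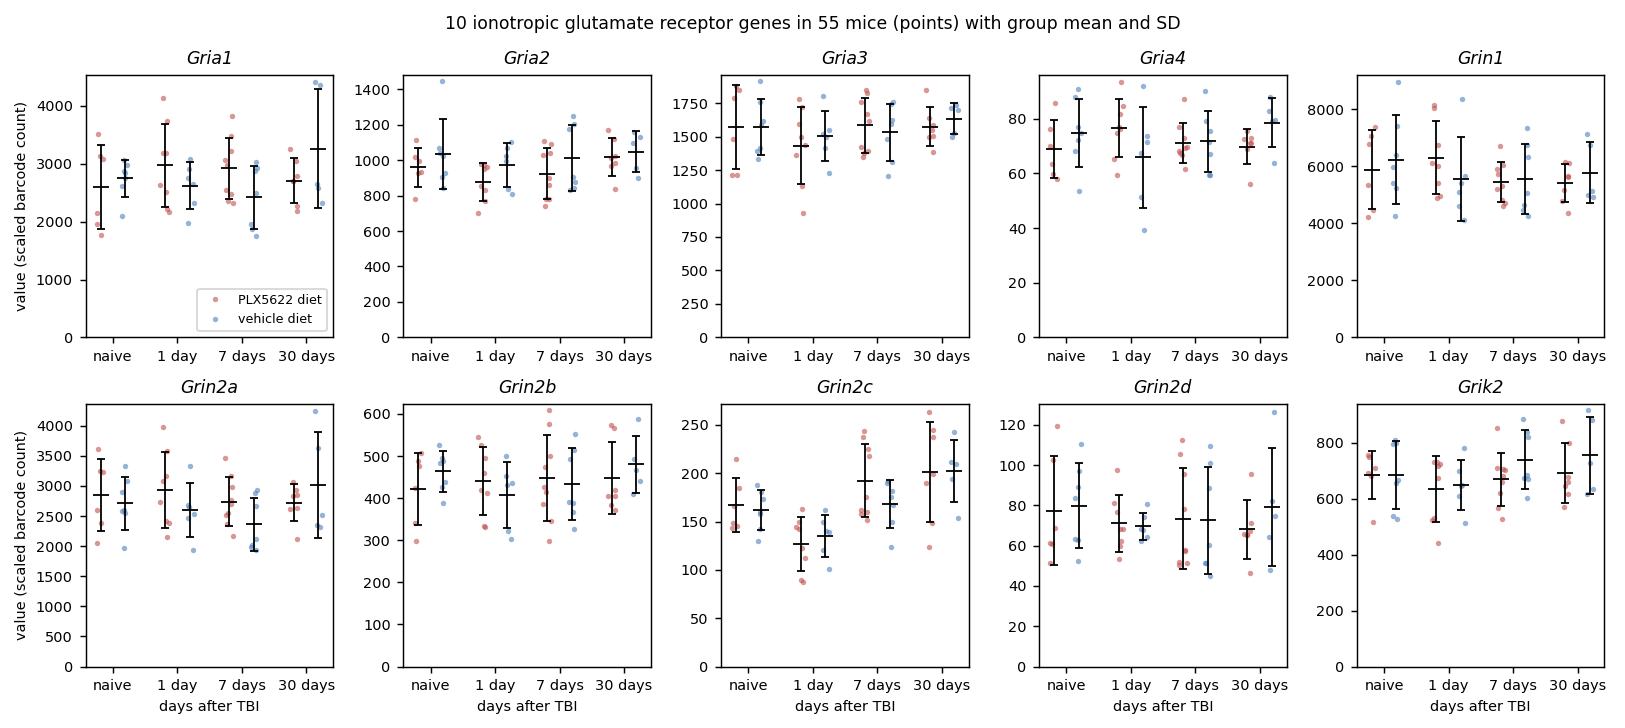
Value (scaled barcode count, linear axis) of each of the 10 members in 55 mice at naive, 1, 7 and 30 days after TBI, with PLX5622 mice (red) left of vehicle mice (blue); bars are group mean and SD. Grin2c sits lowest at 1 day on both diets, with group means of 127 on PLX5622 and 135 on vehicle, and the other panels show broad overlap between groups.

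Grin2c encodes GluN2C, an NMDA receptor subunit that gives small currents and weak block by magnesium. On PLX5622 its lowest, median and highest values were 144, 157 and 215 in naive mice, 87.9, 133 and 163 at 1 day, 152, 175 and 244 at 7 days, and 124, 200 and 263 at 30 days. On vehicle they were 130, 160 and 188 in naive mice, 101, 140 and 162 at 1 day, and 124, 175 and 192 at 7 days, and the 5 mice at 30 days had 154, 195, 209, 211 and 243. The 1-day mice were low and the 30-day mice high on both diets, although the ranges of all groups compared overlapped.

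The 7-day mice on PLX5622 averaged 192 ± 37.9 (SD, n = 9) and the 1-day mice on PLX5622 averaged 127 ± 28.1 (SD, n = 8). This was a rise of 0.57 ± 0.14 on the log2 scale (SE; 1.49-fold, 95% interval 1.23 to 1.80, limma adjusted p = 0.014). With only the compared groups in the fit it was 0.55 (adjusted p = 0.0863), which ends the call. Grin2c was 1 of 10 members called in this comparison, in which 2.38% of the panel was called. All 9 of the 7-day mice lay above the median of the 1-day mice, and the ranges met between 152 and 163. On vehicle, the 7-day mice averaged 168 ± 24.5 (SD, n = 7) and the 1-day mice 135 ± 21.6 (SD, n = 6), a log2 difference of 0.31 ± 0.16 (SE, limma adjusted p = 0.609). The change between days 1 and 7 on PLX5622 minus that on vehicle was 0.26 ± 0.21 (SE, 95% interval -0.16 to 0.68, adjusted p = 0.994), so a difference between diets in this rise was not detected.

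Further comparisons with day 1 were added after the values had been seen, because day 1 held the lowest means. Day 1 was thus picked from the values that are then tested, so the p-values of these comparisons are too small and are given as a description. Averaged over both diets, Grin2c rose by 0.44 ± 0.10 (SE) at 7 days over 1 day (adjusted p = 0.00455, 6.38% of the panel called) and by 0.62 ± 0.11 (SE) at 30 days over 1 day (1.54-fold, 95% interval 1.31 to 1.80, adjusted p = 0.000333, 5.63% called). Within PLX5622 mice the 30-day value was 0.63 ± 0.15 (SE) above that at 1 day (adjusted p = 0.00489, 3.0% called; adjusted p = 0.161 with only the compared groups in the fit). In that comparison 6 of the 16 microglial genes were called higher too, among them C1qb, a complement gene, at 2.88 ± 0.52 (SE, adjusted p = 0.000306) and Cx3cr1, the fractalkine receptor gene, at 1.94 ± 0.32 (adjusted p = 7.84e-05). Called higher there as well were Gja1 (0.84 ± 0.19, SE, limma adjusted p = 0.00437) and S100b (0.60 ± 0.16, adjusted p = 0.0178) of the astrocyte list. So was Stx1a of the pan-neuronal list (0.39 ± 0.11, SE, limma adjusted p = 0.0387). The summed microglial level had a median of 995 at 30 days and 346 at 1 day on PLX5622. The part of these genes or of that level in the Grin2c result was not tested. Within vehicle mice the difference was of like size, 0.61 ± 0.17 (SE), and missed the threshold (adjusted p = 0.0709, 0.876% called). No other member was called in these comparisons. The comparison of the 7-day change between diets called 0.0% of the panel by limma, against 18 genes at an unadjusted p under 0.05 and 0 genes by DESeq2 or edgeR.

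Against naive mice the 1-day difference of Grin2c did not pass the threshold. Averaged over diets the difference was -0.31 ± 0.11 (SE, 95% interval -0.54 to -0.09, limma adjusted p = 0.0593), and it was -0.37 ± 0.15 on PLX5622 (adjusted p = 0.166) and -0.26 ± 0.16 on vehicle (adjusted p = 0.562). At 30 days the difference from naive mice was 0.31 ± 0.12 averaged over diets (SE, adjusted p = 0.186), and at 7 days it was 0.13 ± 0.10 (SE, adjusted p = 0.717). At 1 day the averaged difference was called in 5 of the 14 alternative analyses and in 7 of the 55 fits that each left out one mouse.

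**Figure D2:**
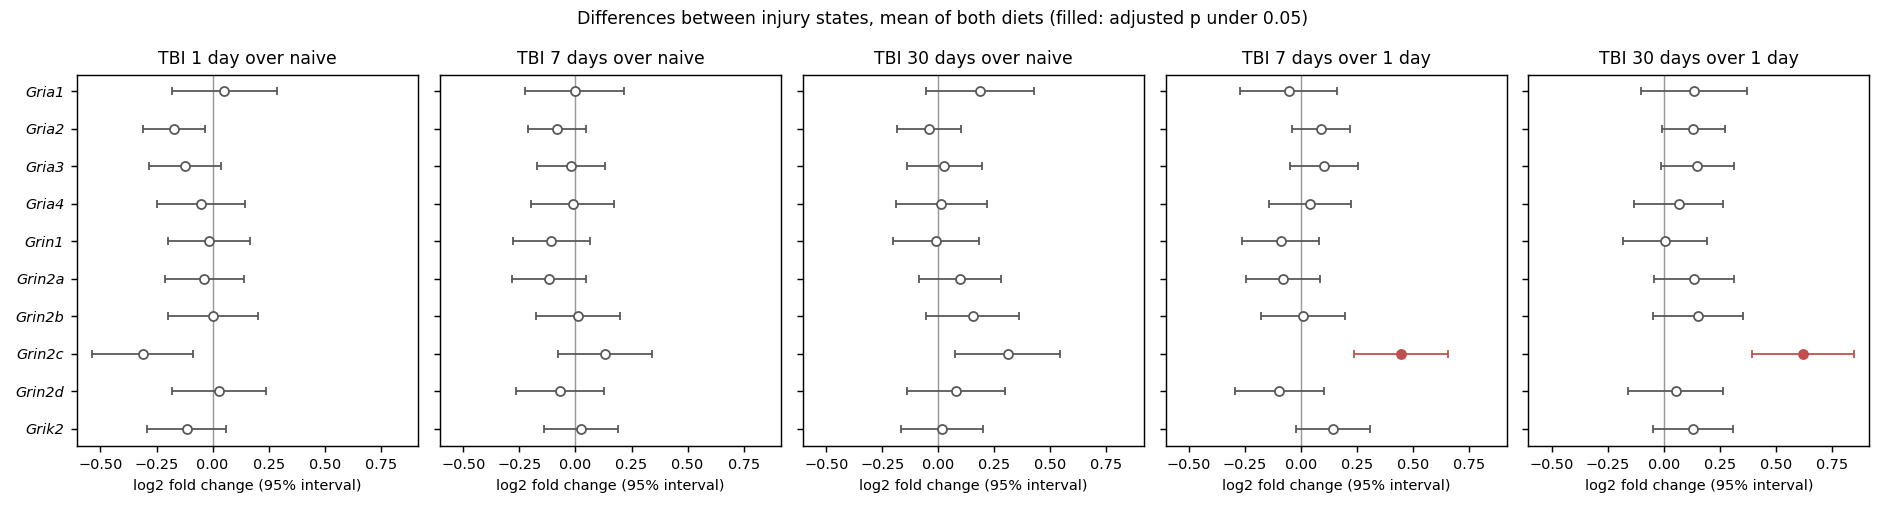
Log2 fold change (x axis) of each member between injury states, averaged over both diets, with the 95% interval from limma; filled red points have an adjusted p under 0.05. Only Grin2c is filled, at 0.44 for 7 days over 1 day and 0.62 for 30 days over 1 day, both in comparisons added after the values were seen.

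The lowest 3 values of Grin2c at 1 day on PLX5622, in mice 693, 688 and 696, all came from cartridge 1 and extraction batch 1. Within cartridges 1 to 5 the log2 difference of 7-day minus 1-day mice on PLX5622 was 0.99, 0.19, 0.41, 0.47 and 0.50, and within extraction batches 1 to 3 it was 0.99, 0.26 and 0.48. It was thus above 0 in each, with 1 to 3 mice a side per cartridge, and largest in the batch with those 3 mice. On vehicle the same difference was 0.14, 0.59, 0.31 and 0.11 within cartridges 2 to 5, and for 30 minus 1 day on vehicle it was 0.63, 0.77 and 0.58 within cartridges 2 to 4. For 30 minus 1 day on PLX5622 it was 1.05, 0.54, 0.38, 0.78 and -0.22 within cartridges 1 to 5, the last from 1 mouse at each day. Without the 2 mice of lowest total count, 693 and 698, the rise between days 1 and 7 on PLX5622 was 0.52 (adjusted p = 0.0178). The 1-day difference from naive mice on PLX5622 was -0.58, -0.29, 0.14, -0.20 and -0.57 within cartridges 1 to 5.

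Astrocytes are one cortical cell type in which Grin2c is transcribed, and 2 of the 7 astrocyte genes measured rose with it between days 1 and 7 on PLX5622. Gja1, which encodes the gap junction protein connexin 43, averaged 610 ± 231 at 7 days and 275 ± 36.4 at 1 day (SD, n = 9 and 8), a rise of 1.02 ± 0.18 (SE, limma adjusted p = 0.000348). S100b, a calcium-binding protein gene, averaged 296 ± 75.0 and 200 ± 38.7 in the same groups, a rise of 0.57 ± 0.15 (SE, adjusted p = 0.0222). The other 5 were not called: Aqp4, the water channel of astrocyte endfeet, was at 0.55, Slc1a2, the glutamate transporter GLT-1, at 0.06, Sox9 at -0.10, Aldh1l1 at -0.27 and Gfap, the intermediate filament of reactive astrocytes, at -0.56. The list did not move as one at 1 day over naive mice either. Averaged over diets Gfap was 2.97 ± 0.41 higher (SE, limma adjusted p = 6.65e-07), Aldh1l1 0.51 ± 0.13 higher (adjusted p = 0.0036) and Aqp4 0.56 ± 0.19 higher (adjusted p = 0.0468). Not called were Gja1 at -0.35 (limma adjusted p = 0.116), S100b at -0.15 (adjusted p = 0.512), Sox9 at 0.27 (adjusted p = 0.274) and Slc1a2. Grin2c stood at -0.31 and was not called either (limma adjusted p = 0.0593).

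**Figure D3:**
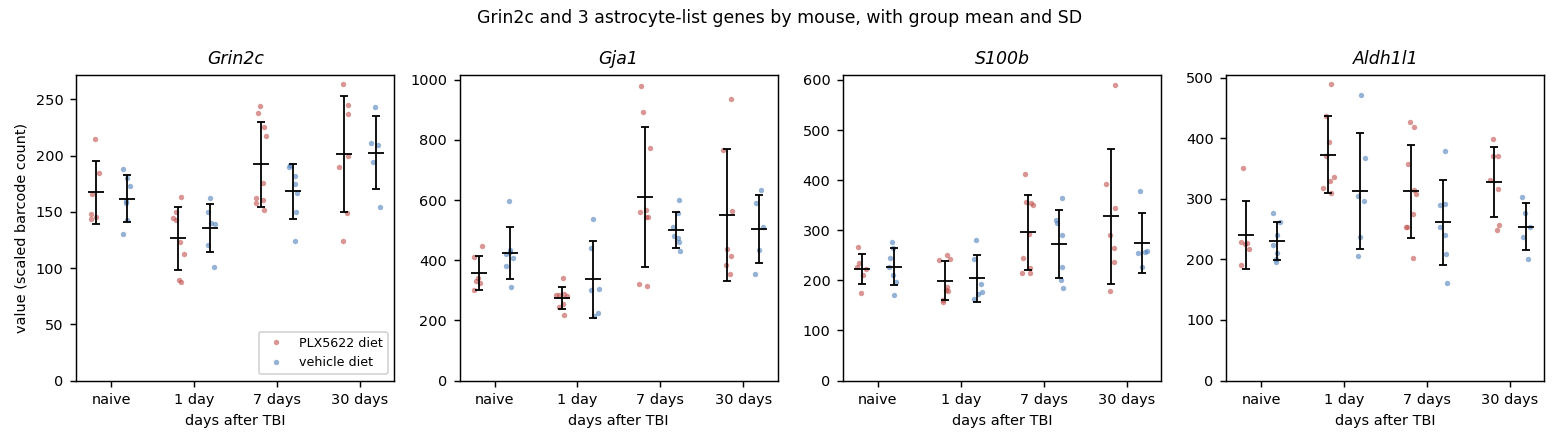
Value (scaled barcode count, linear axis) of Grin2c and of 3 genes of the astrocyte list, Gja1, S100b and Aldh1l1, per mouse at naive, 1, 7 and 30 days after TBI, PLX5622 (red) left of vehicle (blue); bars are mean and SD. Grin2c, Gja1 and S100b have their lowest group means at 1 day, and Aldh1l1 its highest. The rest of the 7 astrocyte genes measured, Gfap, Aqp4, Slc1a2 and Sox9, are not drawn. Their means at 1 day were above those of naive mice on both diets.

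After removal of group and cartridge means, the values of Grin2c in the 55 mice correlated with those of S100b at r = 0.49, Gfap at 0.42, Gja1 at 0.41, Aqp4 at 0.40, Aldh1l1 at 0.27, Slc1a2 at 0.22 and Sox9 at 0.03. Such sizes were not particular to Grin2c. With Slc1a2, r was 0.59 for Grin2a and -0.59 for Grin2b, and Grin1 had 0.48 with Aldh1l1 and Grin2d 0.42 with Aqp4. Of all pairs of the 644 panel genes with a mean value of 20 or more, 30.3% had an r of at least 0.35 in size. These are descriptions over mice that share cartridges and differ in depth, and the part of astrocyte number or state in the Grin2c values was not tested. Of the other marker lists, the comparison of 7 with 1 day on PLX5622 called 0 of 11 pan-neuronal genes, 0 of 11 inhibitory and 0 of 2 excitatory neuron genes, 0 of 9 oligodendrocyte genes and 0 of 3 precursor genes. It called 1 of 16 microglial genes higher, Cx3cr1, and 1 of 8 endothelial and pericyte genes lower, Pecam1. More markers moved in the comparisons averaged over diets. Of the astrocyte list, Gja1 was 0.81 ± 0.14 higher at 7 days (SE, limma adjusted p = 7.99e-05) and 0.71 ± 0.15 higher at 30 days than at 1 day (adjusted p = 0.00149). S100b was 0.45 ± 0.11 and 0.45 ± 0.12 higher (SE, limma adjusted p = 0.00694 and 0.0131), and the rest of that list was not called. Stx1a, a presynaptic syntaxin gene of the pan-neuronal list, was 0.39 ± 0.08 higher at 7 days (SE, adjusted p = 0.0013) and 0.41 ± 0.09 higher at 30 days than at 1 day (adjusted p = 0.00186). Calb1, the calbindin gene of some interneurons, was 0.35 ± 0.09 and 0.37 ± 0.10 higher (adjusted p = 0.0122 and 0.0131). Olig2, a transcription factor gene of the oligodendrocyte lineage, was lower at both days (-0.58 and -0.55, adjusted p = 0.00512 and 0.0156). Gad1, a gene of GABA synthesis, was lower at 7 days (-0.36, adjusted p = 0.00694), as were Pecam1 and Slc2a1 of the vascular list. At 30 days the microglial genes Cx3cr1 and P2ry12 were higher than at 1 day. The part of these markers in the Grin2c result was not tested.

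The 4 AMPA receptor genes gave no call in any comparison, beside panel shares of 0.0% to 11.4%, at which 0 of 4 says little about these genes. Gria2, the subunit gene that sets calcium permeability, had lowest, median and highest values of 699, 901 and 977 at 1 day and 782, 963 and 1113 in naive mice on PLX5622. On vehicle these were 808, 1009 and 1100 at 1 day and 844, 1022 and 1446 in naive mice. The highest naive value belonged to 1 mouse, and the ranges overlapped on both diets. Averaged over diets, the 1-day difference from naive mice was -0.17 ± 0.07 (SE, 95% interval -0.31 to -0.03, limma adjusted p = 0.11), and 4 of 14 alternative analyses called it.

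Gria1 encodes the AMPA subunit whose insertion into synapses accompanies potentiation. Its values on vehicle at 30 days were 2318, 2585, 2651, 4359 and 4410, against a lowest, median and highest of 1748, 2496 and 3034 at 7 days. Only 2 of the 5 mice at 30 days lay above the 7-day range, and the difference of 0.45 ± 0.17 (SE) had an adjusted p of 0.446. On PLX5622 the 30-day mice had 2187, 2711 and 3256 and the 7-day mice 2329, 2974 and 3831, a difference of -0.07 ± 0.15 (SE, adjusted p = 0.99).

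Gria3 ranged between 927 and 1915 over all mice, with group means between 1432 at 1 day on PLX5622 and 1635 at 30 days on vehicle. Gria4, found in cortical interneurons among other cells, ranged between 39.4 and 93.5, with means between 65.9 at 1 day on vehicle and 78.6 at 30 days on vehicle. Averaged over diets, the 95% intervals of the 1-day difference from naive mice were -0.28 to 0.04 for Gria3 and -0.25 to 0.14 for Gria4. Neither gene was called at this sample size, and changes within those bounds cannot be told from 0.

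Grin1, the subunit gene that every NMDA receptor needs, had lowest, median and highest values of 4893, 6070 and 8149 at 1 day on PLX5622, against 4127, 5266 and 8353 at 1 day on vehicle. These ranges nearly coincide, the vehicle maximum coming from 1 mouse. The difference between diets was 0.26 ± 0.13 (SE, 95% interval 0.00 to 0.51, limma adjusted p = 0.395). At 7 days on PLX5622 the values were 4601, 5323 and 6709, and the 7-day minus 1-day difference was -0.25 ± 0.11 (SE, adjusted p = 0.268).

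Grin2a, the main GluN2 gene of adult cortex, had 2319, 2354, 2514, 3628 and 4249 at 30 days on vehicle, against a lowest, median and highest of 1936, 2115 and 2927 at 7 days on vehicle. Mice 707 and 684 were far above the rest at 30 days, and the difference of 0.37 ± 0.13 (SE) had a limma adjusted p of 0.446. Mouse 707 was also high for Gria1, whereas mouse 716, the other one high for Gria1, had the lowest Grin2a of this group. Grin2b, the GluN2 gene of the young brain, had group means between 408 at 1 day on vehicle and 480 at 30 days on vehicle. Its 1-day difference from naive mice averaged over diets was 0.00 ± 0.10 (SE, 95% interval -0.20 to 0.20). Grin2d, which in cortex is known mainly from interneurons, had group means between 68.2 at 30 days on PLX5622 and 79.9 in naive mice on vehicle. It also varied most between cartridges, with a 1.63-fold ratio of the highest to the lowest cartridge mean, against 1.15-fold to 1.42-fold for the other members.

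Grik2, the kainate receptor gene, had group means between 635 at 1 day on PLX5622 and 755 at 30 days on vehicle. Averaged over diets its differences from naive mice were -0.12 ± 0.09 at 1 day, 0.03 ± 0.08 at 7 days and 0.01 ± 0.09 at 30 days (SE, adjusted p of 0.5, 0.958 and 0.954 by limma).

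Microglial depletion was not accompanied by a called difference in any receptor gene. PLX5622 minus vehicle called 0 of 10 members in naive mice and at 1, 7 and 30 days, where 3.38%, 4.13%, 4.13% and 2.63% of the panel was called. It called 0 of 10 averaged over the 4 injury states, where 6.63% was called. At such shares, 0 of 10 says little about these genes. At an unadjusted p under 0.05, limma had 1 member in these 5 comparisons, Grin1 at 1 day, and DESeq2 and both edgeR fits called none. Averaged over injury states, the difference ranged between -0.09 ± 0.05 for Gria2 (SE, adjusted p = 0.32) and 0.06 ± 0.06 for Grin2a (adjusted p = 0.675). The median over the 10 members was -0.01, beside -0.05 over all genes. The sign of differences this small depended on scaling, and with each mouse centred on its median gene 7 of the 10 changed sign, Gria2 to 0.02. Over the 10 members, the 95% intervals of this averaged difference lay between -0.19, the lower bound for Gria2, and 0.18, the upper bound for Grin2c. Within one injury state they were wider, for example -0.61 to 0.07 for Gria1 at 30 days. In the same libraries, 15 of the 16 measured genes of the microglial list were called lower in PLX5622 mice averaged over injury states. From the other marker lists, the same comparison called the pan-neuronal gene Map2 lower (-0.27 ± 0.06, SE, limma adjusted p = 0.00123). It called the astrocyte gene Gfap higher (1.04 ± 0.28, SE, limma adjusted p = 0.00921).

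**Figure D4:**
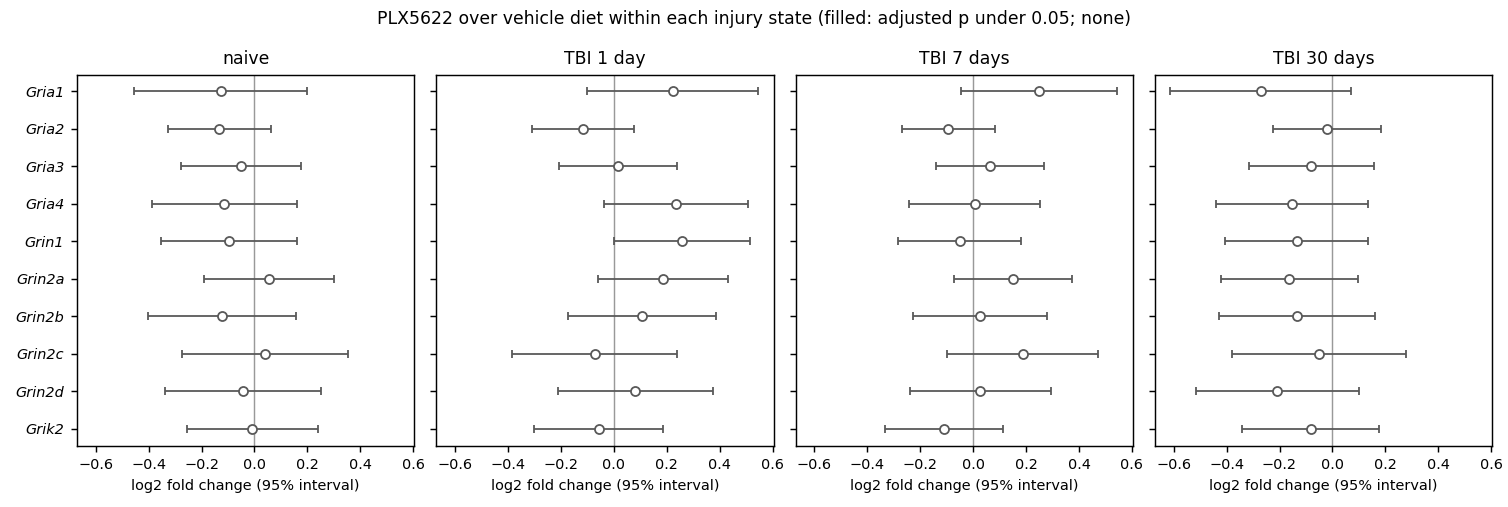
Log2 fold change (x axis) of PLX5622 over vehicle for each member within naive mice and 1, 7 and 30 days after TBI, with the 95% interval from limma. No point is filled, since none has an adjusted p under 0.05, and point estimates lie between -0.27 and 0.26.

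Injury minus naive within one diet called 0 of 10 members at each day. The panel share called was 7.01%, 1.5% and 2.25% at 1, 7 and 30 days on PLX5622, and 2.25%, 0.0% and 0.0% on vehicle. At an unadjusted p under 0.05, limma had 51 genes at 7 days and 29 at 30 days on vehicle, where DESeq2 called 12 and 1 and edgeR with TMM called 9 and 0. Grin2c was the only member with an unadjusted p under 0.05 in these 6 comparisons, at 1 day on PLX5622 and at 30 days on vehicle. At 1 day the median over the 10 members was 0.06 on PLX5622, beside 0.10 over all genes, and -0.14 on vehicle, beside -0.04 over all genes. Averaged over diets, 0 of 10 members were called at 1, 7 and 30 days, where 11.4%, 3.75% and 1.88% of the panel was called.

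Whether injury acted differently on the diets was tested as an interaction, which called 0 of 10 members at each day. It called 0.125%, 0.0% and 0.375% of the panel at 1, 7 and 30 days, with 34 genes at an unadjusted p under 0.05 at 7 days and 0 by DESeq2 or edgeR there. For Grin2c the interaction was -0.11 ± 0.22 at 1 day, 0.15 ± 0.21 at 7 days and -0.09 ± 0.23 at 30 days (SE, adjusted p of 0.969, 0.879 and 0.994 by limma). The remaining comparisons of successive days called 0 of 10 members. They were 7 minus 1 day on vehicle, 30 minus 7 days on vehicle and 30 minus 7 days on PLX5622, and limma called 0.0% of the panel in each, with 66, 71 and 33 genes at an unadjusted p under 0.05. DESeq2 called 14, 4 and 1 genes there, and edgeR with TMM 9, 6 and 1, none of them a member.

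Partners of these receptors at the glutamate synapse gave 1 call in 26 comparisons. Of a list of 59 such genes, 21 were on the panel, among them the metabotropic receptors Grm2, Grm5 and Grm8, the scaffolds Dlg4, Dlg3, Dlgap1, Homer1 and Shank2, the kinase subunits Camk2b, Camk2d and Camk2g, and Grin3b, an NMDA receptor gene outside the chosen 10. Limma called 0 of 21 in all 21 planned comparisons, beside panel shares of 0.0% to 11.4%, and 2 of them, Grm2 and Slc17a6, had an unadjusted p under 0.05 at 1 day over naive mice averaged over diets. Of the added comparisons, that of 30 days with 1 day averaged over diets called Grm2, a presynaptic receptor that restrains glutamate release, with a rise of 0.45 ± 0.14 (SE, limma adjusted p = 0.0497), 1 of 21 where 5.63% of the panel was called. This call held in 4 of 14 alternatives (adjusted p between 0.0322 and 0.276). Grin3b, singled out after its values were seen, was 0.35 ± 0.16 higher in PLX5622 than in vehicle mice averaged over injury states (SE) and was not called (adjusted p = 0.231).

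Some pairs of members varied together between mice of one group. Residuals of log2(value + 1) after group and cartridge were correlated for all 45 pairs of members, with two-sided permutation tests of 100000 resamples and Benjamini-Hochberg adjustment over the 45 pairs. Pearson's r and Spearman's rho were both called for 10 pairs, 8 positive and 2 negative, and not for 35. The lowest r of these 10 was 0.35 in size, a size reached by 22.2% of the member pairs and by 30.3% of all 207046 pairs of the 644 panel genes with a mean value of 20 or more, so the count says nothing particular about the receptors. Only 5 of the 10 pairs kept one sign in all 5 cartridges. The strongest was Grin1 with Grin2a, the 2 genes whose products form the common adult NMDA receptor (r = 0.79, rho = 0.76, permutation adjusted p = 0.000225 for each; the raw p of 1e-05 is the smallest the resamples can give). Within the 5 cartridges r was 0.79, 0.92, 0.71, 0.79 and 0.72, and without the 2 mice farthest from the median of Grin1 it was 0.76.

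Gria1 followed Grin2a (r = 0.59, rho = 0.61, permutation adjusted p = 0.000225 for each) with a positive r in all 5 cartridges, between 0.30 and 0.94. Gria3 and Grik2 were paired at r = 0.53 (rho = 0.50, permutation adjusted p = 0.0012 and 0.00285), and r stayed positive in every cartridge, between 0.22 and 0.82. Grin1 ran against Gria4 (r = -0.47, rho = -0.45, permutation adjusted p = 0.00292 and 0.00559) and against Grin2b (r = -0.41, rho = -0.44, permutation adjusted p = 0.00868 and 0.00559), with a negative r in all 5 cartridges for both pairs. When each mouse was centred on the median of all genes, r was -0.21 for Grin1 with Gria4 and -0.41 for Grin1 with Grin2b. Depth moved with some of these residuals: r with the log2 total count was 0.55 for Grin2b, -0.46 for Grin2a and -0.28 for Grin1, and with depth removed too r was -0.32 for Grin1 with Grin2b and 0.77 for Grin1 with Grin2a. The part of RNA quality in these relations was not tested. The 5 called pairs whose sign differed in 1 cartridge were Gria1 with Gria3 (r = 0.43, and -0.42 in cartridge 1), Gria1 with Grin1 (0.45, and -0.01 in cartridge 3), Gria2 with Gria3 (0.41, and -0.20 in cartridge 4), Gria2 with Grik2 (0.38, and -0.12 in cartridge 4) and Grin1 with Grin2d (0.35, and -0.15 in cartridge 3). Grin2c gave no pair called by both measures, its highest r being 0.35 with Grin2d (permutation adjusted p = 0.0421 for r and 0.0654 for rho).

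**Figure D5:**
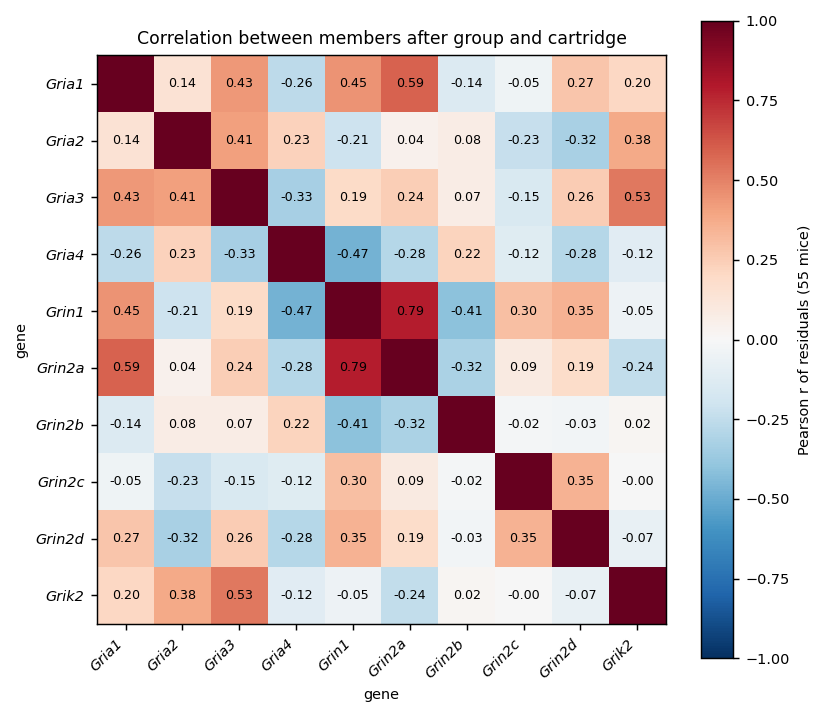
Pearson r (colour and number) between the residuals of each pair of the 10 members after group and cartridge, over 55 mice. Grin1 with Grin2a is highest at 0.79 and Grin1 with Gria4 lowest at -0.47.

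Among the 634 other panel genes with a mean value of 20 or more, the closest to each member was named by the same residual r over 55 mice, as a description. Grin1 was most like Camk2b, a subunit gene of the kinase CaMKII (r = 0.91), and Cacna1a, a calcium channel gene (r = 0.86). Grin2a was most like Nefl, a neurofilament gene (r = 0.84), and Ryr2, a calcium release channel gene (r = 0.81). Gria1 was most like Slc8a1 (r = 0.80) and Chmp2b (r = 0.79), Gria2 like Slc1a1 (r = 0.68) and Ube2n (r = 0.66), and Gria3 like Rab3c (r = 0.83) and Cntn1 (r = 0.70). Gria4 was most like Cnr1, the CB1 cannabinoid receptor gene (r = 0.53), and Cdk5 (r = 0.52). Grin2b was most like Gaa (r = 0.75) and Magee1 (r = 0.73), Grin2d like Npc1 (r = 0.79) and Mfn2 (r = 0.73), and Grik2 like Hdac2 (r = 0.69) and Sec23a (r = 0.68). Grin2c was most like Nwd1 (r = 0.65) and Plxnb1 (r = 0.62), and without the 2 mice farthest from its median these values were 0.59 and 0.53. With each mouse centred on its median gene they were 0.52 and 0.41.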

How the data were processed

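Per the labels' protocols, RNA was extracted from microdissected cortex, pre-amplified and hybridised to nCounter probes. The deposited values are signals, which the authors made from barcode counts. DESeq2 is the one tool in the submitters' processing notes, and no version is given in the sources used here. In all 55 mice every value was a whole multiple of the worth of 1 count, within 0.02, so counts could be recovered in full. Depth was 176038 to 1208609 counts per mouse. Groups came from the labels, and p-values measure the spread between mice.

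The main test was limma 3.58.1 (lmFit, eBayes with a trend) in R 4.3.3 on log2(value + 1), with the 8 group means and cartridge, for 21 planned comparisons and 5 added after the data were seen. DESeq2 1.42.0 and edgeR 4.0.16 (quasi-likelihood) on recovered counts, other covariates, scalings and filters, and leaving out each mouse were alternatives. The models were tested on simulated data with the same dispersion for all genes and no cartridge effects, so that test does not cover cartridge effects. edgeR would have been the main test for raw counts. The members were fixed by name, partners were to be named with values where called, and the 2 genes most like each member were taken by residual r. Members and lists were chosen with earlier results of these data known. Lists of marker genes covered neurons, microglia, astrocytes, oligodendrocytes, their precursors and vessels. Permutation tests and figures used Python 3.11.15 (numpy 2.4.6, scipy 1.17.1, matplotlib 3.10.9).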

Additional observations from a re-analysis of the deposited data

Results flagged for a closer look

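In 4 of the 80 sets of values (10 members in 8 groups) one mouse stood apart from the rest of its group, in that its gap to the nearest other mouse took up more of the group's range than Dixon's 95% limit allows. Chance alone would do this in about 1 of 20 sets. Gria2 was 1446 in vehicle naive mouse 732, the highest of that group. Gria4 was 56.2 in mouse 685, the lowest at 30 days on PLX5622. Grin1 was 8353 in mouse 726, the highest at 1 day on vehicle. Grik2 was 518 in mouse 713, the lowest of the PLX5622 naive mice. The 4 values belong to 4 different mice.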

How the results depend on the processing

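Of the 27 counts of members called (26 comparisons and the F test), 21 stayed within 1.5 times under every alternative. For 1 day over naive on PLX5622 the count was 1 in place of 0 with centring on the sample median, DESeq2 or edgeR with TMM. For 1 day over naive averaged over diets it was 1 without a covariate, with extraction batch as the covariate, or with only the compared groups in the fit, and 2 with centring on the sample median, DESeq2 or edgeR with TMM; leaving out each mouse gave 0 to 2. Leaving out each mouse gave 0 to 1 for 30 days over naive averaged over diets and for 30 days over 1 day on vehicle. With only the compared groups in the fit, which leaves fewer mice to estimate the spread, the count was 0 for 7 days over 1 day and for 30 days over 1 day on PLX5622. Pairs of members called numbered 18 without removal of cartridge, against 10 with it, and 11 and 15 with the other residuals. Grin2c kept its F test call in 10 of 10 alternatives and 55 of 55 fits without one mouse. Its rise between days 1 and 7 on PLX5622 was 0.52 to 0.61 in 14 alternatives and called in 13; with only the compared groups it was 0.55 (adjusted p = 0.0863). The 30-day minus 1-day difference on PLX5622 was 0.54 in that fit (adjusted p = 0.161). Without mouse 733 the 30-day minus 1-day difference on vehicle had an adjusted p of 0.0289. The 30-day difference from naive mice averaged over diets was 0.40 without mouse 733 (adjusted p = 0.0286). Over all genes, 7 days over 1 day on PLX5622 gave 19 calls, against 57 by DESeq2 and 2 with only the compared groups; 30 days over 1 day gave 24 on PLX5622, 7 on vehicle and 45 averaged, against 59, 20 and 71 by DESeq2. TBI over naive at 1 day gave 18 on vehicle and 56 on PLX5622, against 65 and 33 with only the compared groups. At 7 days it gave 12 on PLX5622 and 30 averaged, against 28 and 58 by DESeq2. At 30 days it gave 18 on PLX5622 and 15 averaged, against 9 and 5 with centring on the pan-neuronal list. The interaction gave 3 at 30 days, against 5 by DESeq2 and 0 with pan-neuronal centring, a pseudocount of 10 or no trend. The causes of these differences were not tested. The 8 Grin2c differences and the Gria2 difference followed through all alternatives kept their sign. Of 260 member estimates, 59 changed sign with centring on the sample median, 65 with centring on the pan-neuronal list and 57 by DESeq2; the largest of these was 0.15 in size and none had an unadjusted p under 0.05. The median of all genes lay between -0.14 for the diets in naive mice and 0.15 for the interaction at 7 days, and DESeq2 put these medians at 0.01 each. No paired analysis was possible because each mouse number belongs to 1 mouse and is shared by no other group. The low counts of Grin2d, Gria4 and Grin2c limit their precision most.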
